A study of Mus musculus with 88 samples.

Results

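The genes described here act on the poly(A) tail and the cap of maternal mRNA, and comprise 10 listed genes: the adaptor Btg4, the CCR4-NOT subunits Cnot1, Cnot6, Cnot6l, Cnot7 and Cnot8, the RNA-binding protein gene Zfp36l2, the decapping genes Dcp1a and Dcp2, and the poly(A)-binding protein gene Pabpc1l. The list names genes and uses no measured value, although it was drawn up with earlier results of these data known, and each gene was matched to a feature of the oocyte transcriptome annotation over which the reads had been counted. Of the 10 genes, 9 had a feature of their own among the 38540 features of the count table. Zfp36l2 had none, because its locus (GRCm38 chr17:84183931-84187947, minus strand) lies within the longer feature of Thada on the same strand, and no value is given for it.

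RNA was measured in single fully grown germinal vesicle (GV) oocytes of C57BL/6Babr virgin female mice aged 12 weeks (young, n = 42 oocytes) or 44 to 54 weeks (old, n = 46 oocytes), and the labels name no genetic change or treatment for either group. It is the RNA part of scM&T-seq, in which polyadenylated RNA of an oocyte is captured on oligo-dT beads and amplified as Smart-seq2 cDNA, while the DNA of the same oocyte is set aside for methylation. The bead capture means that the amount of an mRNA and the length of its tail cannot be told apart in these values. The study also predicted, from the transcripts of each oocyte, whether its chromatin surrounds the nucleolus (SN, the more mature and transcriptionally silent state) or not (NSN), and 1 old oocyte without such a prediction was left out. The remaining 87 oocytes were 30 young NSN, 12 young SN, 37 old NSN and 8 old SN oocytes. The paper did not examine chromatin at collection, and it found fewer SN oocytes than the literature reports, above all in the old group. It holds it likely that the prediction differs from the true chromatin state. SN and NSN are therefore names of transcriptome classes here.

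Growing oocytes store mRNA that serves meiotic maturation and the early embryo, and this store is cleared in steps once meiosis resumes. The CCR4-NOT complex shortens poly(A) tails. Cnot1 is its scaffold, Cnot6 and Cnot6l are alternative nucleases of the CCR4 type, and Cnot7 and Cnot8 are alternative nucleases of the CAF1 type. BTG4 brings the complex to mRNA during maturation, ZFP36L2 recruits it to AU-rich elements, DCP1A and DCP2 remove the cap of shortened mRNA, and PABPC1L (also called ePAB) coats poly(A) tails in oocytes and early embryos.

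The total count of a young oocyte was between 1579196 and 8231046, with a median of 3002989, and that of an old oocyte between 976456 and 5448310, with a median of 2379884. Levels are CPM, the counts of a gene per 1000000 counts, pooled over the oocytes of a group, and intervals are exact 95% Poisson intervals that cover counting error only, since reads without molecular identifiers are not independent molecules. The mouse of each oocyte is not named in the labels, so each age group is 1 sample, no test between groups was run, and no p-value is given. The oocytes carried their defining markers. The summed level of the 8 oocyte markers with a feature, Gdf9, Bmp15 and Zp3 among them, was 7447 to 23196 CPM per oocyte, and that of 9 granulosa cell markers was 26.95 to 126 CPM. Nr5a2 and Kitl made up 86.0% of that sum in the median oocyte and 57.3 of the 126 CPM in the highest. Among the other markers Inha reached 54.1, Inhba 19.05 and Hsd17b1 10.6 CPM in an oocyte, whereas Amh and Foxl2 stayed at 1.30 CPM or less. Summed blood and immune markers reached 48.6 CPM in an old NSN oocyte and 2.47 CPM in any young oocyte, and the part of these markers in the results was not tested.

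The 9 genes were among the better expressed features, and each had counts in each of the 87 oocytes. Btg4 stood at 1436 CPM over the 87 oocytes, which is rank 50 of the 38540 features. Dcp1a (1075 CPM, rank 82), Cnot7 (676 CPM, rank 156) and Cnot6l (502 CPM, rank 270) were also among the most abundant features. Cnot8, Dcp2, Cnot1 and Pabpc1l lay between 180 and 229 CPM, and Cnot6 was the lowest at 27.7 CPM, rank 6103, with at least 21 counts in any oocyte.

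To compare levels between genes, CPM was divided by the exon length of the gene in kilobases. In young oocytes Btg4 stood at 539 CPM per kb, followed by Dcp1a at 132, Cnot7 at 118, Cnot8 at 85.7, Pabpc1l at 67.9, Cnot6l at 47.2, Dcp2 at 22.5, Cnot1 at 11.2 and Cnot6 at 3.84 CPM per kb. The order was the same in old oocytes, where Btg4 stood at 589 and Cnot6 at 4.602 CPM per kb. Neighbours in this order overlapped: from the 10th to the 90th percentile of young oocytes, Dcp1a covered 108 to 151 and Cnot7 90.1 to 146 CPM per kb, whereas Btg4 covered 454 to 626 CPM per kb, above both. With the longest protein-coding transcript as the length, Cnot7 (229 CPM per kb) lay above Dcp1a (195 CPM per kb), and Cnot1 (23.02 CPM per kb) above Dcp2 (22.7 CPM per kb), so these neighbours are not ordered by the data.

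**Figure D1:**
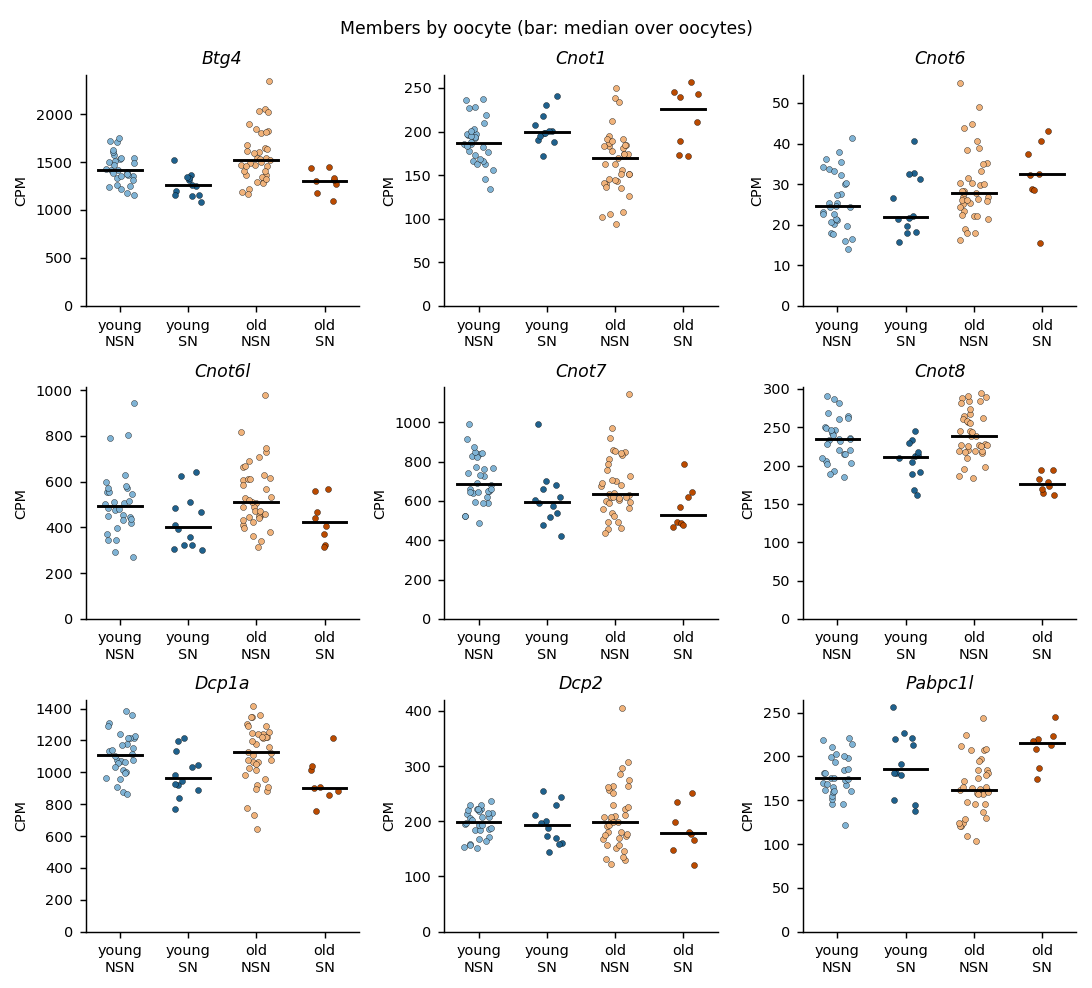
Levels of the 9 genes in each of the 87 oocytes, in CPM (linear axes from 0), for 30 young NSN, 12 young SN, 37 old NSN and 8 old SN oocytes. Points are oocytes and bars are medians. Cnot8 of the old SN oocytes, 161 to 194 CPM, lies below the median of each other group, whereas Cnot1 and Pabpc1l of the old SN oocytes lie above the medians of the old NSN oocytes.

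Btg4 (TCONS_00102943, chr9:51115873-51125362, plus strand) is known for its high expression in oocytes. Its feature was matched by the study's list of names, not by overlap. The Jaccard index of its overlap with the GENCODE M21 gene (chr9:51060901-51119875) was 0.062, below the limit of 0.3. The exon length of that gene (2556 bases), used per kilobase above, may therefore not be that of the feature. With the longest protein-coding transcript (1486 bases) Btg4 stood at 927 CPM per kb in young oocytes, again the highest level. The feature starts inside the RefSeq promoter window of the gene (GRCm38.p6, chr9:51115751-51116050, plus strand, 250 bases before to 50 after the annotated start). The window is shown because it belongs to the most abundant of these mRNAs. Capitals mark E-boxes (CANNTG, searched on both strands), the hexamer that basic helix-loop-helix factors such as FIGLA bind.
Btg4: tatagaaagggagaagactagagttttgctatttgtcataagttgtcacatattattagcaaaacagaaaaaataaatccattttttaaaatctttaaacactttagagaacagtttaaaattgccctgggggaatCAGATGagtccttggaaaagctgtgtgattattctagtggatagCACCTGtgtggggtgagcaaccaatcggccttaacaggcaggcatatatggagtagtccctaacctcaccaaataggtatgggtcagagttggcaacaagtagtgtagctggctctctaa
This window holds 2 E-boxes and has a GC content of 39%. Of all 32817 promoter windows of this length in the table, 72.3% hold at least 1 E-box, and the 10th percentile, median and 90th percentile of their GC content are 39.7%, 52.7% and 69.7%.

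Young oocytes had 1085 to 1747 CPM of Btg4 (median 1361), and old oocytes 1098 to 2348 CPM (median 1464). The groups overlapped broadly, although 30 of 45 old oocytes lay above the young median and 9 above the highest young oocyte. Pooled over oocytes, young had 1377 CPM (95% counting interval 1371 to 1383) with an SD of 167 CPM, and old had 1505 CPM (1498 to 1513) with an SD of 269 CPM, which gives a log2 ratio of 0.13. The numbers in the oocyte names form 6 unbroken runs, 3 young and 3 old, and the labels do not say what a run is. Over these runs Btg4 stood at 1337 to 1405 CPM in the young and 1422 to 1587 CPM in the old ones. Names also carry a suffix A or none, again of unstated meaning. With the suffix the log2 ratio was 0.03, and within NSN oocytes -0.0026 (1451 CPM in young and 1448 CPM in old). Without the suffix it was 0.22, and 8 of the 9 old oocytes above the highest young oocyte had such names. The old oocyte with the highest Btg4, number 31 without the suffix, also had the highest Cnot6 (54.9 CPM), Cnot6l (976 CPM) and Dcp1a (1414 CPM) and the lowest Cnot1 (93.8 CPM) of the old oocytes.

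Within either age, Btg4 was lower in SN than in NSN oocytes. Young NSN oocytes lay between 1156 and 1747 CPM (median 1419) and young SN oocytes between 1085 and 1524 CPM (median 1256), with 1 of 12 SN oocytes above the NSN median. Old NSN oocytes lay between 1169 and 2348 CPM (median 1517) and old SN oocytes between 1098 and 1451 CPM (median 1305), with 0 of 8 SN oocytes above the NSN median. The log2 ratios, SN over NSN, were -0.18 in young (95% counting interval -0.19 to -0.16) and -0.25 in old oocytes (-0.27 to -0.23), neither past 0.3. SN oocytes had less Btg4 in each of the 6 runs, by log2 ratios from -0.44 to -0.08. The configuration was predicted from RNA of the same oocytes, so it is not independent of these levels.

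The scaffold Cnot1 (TCONS_00101095, chr8:95718948-95807462, minus strand) went the other way. It ranged from 134 to 241 CPM in young (median 194) and from 93.8 to 257 CPM in old oocytes (median 174), and 5 old oocytes lay below the lowest young oocyte while 4 lay above the highest. The pooled log2 ratio, old over young, was -0.14. In old oocytes all 8 SN oocytes (172 to 257 CPM, median 225) lay above the median of the NSN oocytes (169 CPM, range 93.8 to 250.1), a log2 ratio of 0.33 (95% counting interval 0.28 to 0.38). It was 0.64 in the 3 old SN oocytes with the suffix A against NSN oocytes with it, but 0.13 in names without it (191.5 against 175.5 CPM) and 0.15 within old run 6. In young oocytes the ratio was 0.10 (SN median 200 CPM, NSN median 187 CPM). SN was the higher in each of the 6 runs, but in 2 of the 3 young runs by a log2 ratio of 0.01 and 0.02. Cnot1 was the only CCR4-NOT gene of the 5 with a higher pooled level in SN oocytes of both ages.

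Cnot6l (TCONS_00081828, chr5:96068370-96162932, minus strand), a CCR4-type nuclease known for its role in clearing maternal mRNA during oocyte maturation, was the more abundant of its pair. Per kilobase it made up 92.1% of Cnot6l plus Cnot6 over the 87 oocytes, and from 86.4% to 95.3% in single oocytes. It varied more than most of the genes here, from 272 to 944 CPM in young (median 479) and from 313 to 976 CPM in old oocytes (median 488), so the ages overlapped almost fully. The log2 ratio, old over young, was 0.09.

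Cnot6l was lower in SN oocytes in the pooled data of both ages. In young oocytes the pooled level was 523 CPM in NSN (range 272 to 944) and 399 CPM in SN (range 302 to 644), which is -0.39 on the log2 scale (95% counting interval -0.42 to -0.37). Of the young SN oocytes, 3 of 12 lay above the NSN median. In old oocytes it was 544 CPM in NSN (range 315 to 976) and 411 CPM in SN (range 313 to 569), a log2 ratio of -0.40 (-0.44 to -0.37), with 2 of 8 SN oocytes above the NSN median. The ranges overlapped at both ages. In young oocytes the difference was short of 0.3 with means over oocytes (429 CPM in SN and 509 CPM in NSN). It was also short of 0.3 with medians (402 and 494 CPM) and once all oocytes were thinned to 900000 counts. Names with and without the suffix A differed as much: young NSN oocytes stood at 415 CPM with and 610 CPM without it. Among young oocytes with the suffix the log2 ratio was -0.03, and among those without it -0.67. In old oocytes with the suffix it was -0.22 (423 CPM in SN and 494 CPM in NSN), short of 0.3. Without the suffix old SN oocytes stood at 405 CPM and old NSN oocytes at 599 CPM. By run the log2 ratio was between -0.57 and -0.70 in 4 runs and 0.03 and 0.26 in the other 2.

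Cnot6 (TCONS_00018621, chr11:49671107-49712799, minus strand) is the paralog of Cnot6l. Its feature starts within a RefSeq promoter window (GRCm38.p6, chr11:49712673-49712972, minus strand), shown beside that of Btg4.
Cnot6: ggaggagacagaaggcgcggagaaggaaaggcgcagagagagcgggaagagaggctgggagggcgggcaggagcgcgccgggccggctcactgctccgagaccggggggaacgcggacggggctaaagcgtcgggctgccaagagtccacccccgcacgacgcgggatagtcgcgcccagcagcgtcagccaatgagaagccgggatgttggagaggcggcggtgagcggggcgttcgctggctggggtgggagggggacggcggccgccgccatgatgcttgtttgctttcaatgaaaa
This window has a GC content of 68.7% and holds 0 E-boxes, so it has no capitals.

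Cnot6 ranged from 14.1 to 41.3 CPM in young (median 24.4) and from 15.4 to 54.9 CPM in old oocytes (median 28.4). The groups overlapped, and 34 of 45 old oocytes lay above the young median. Pooled, young oocytes had 25.4 CPM (95% counting interval 24.5 to 26.2) and old oocytes 30.4 CPM (29.4 to 31.5), for a log2 ratio of 0.26, the highest of the 9 genes. The run levels overlapped only slightly, with 23.3 to 28.3 CPM in young and 28.2 to 32.5 CPM in old runs. With the suffix A the log2 ratio was 0.40 and without it 0.14.

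Among SN oocytes alone the age difference of Cnot6 was larger. Young SN oocytes lay between 15.8 and 40.5 CPM (median 21.9) and old SN oocytes between 15.4 and 42.98 CPM (median 32.4), so the ranges overlapped although 7 of 8 old SN oocytes were above the young SN median. The log2 ratio of the pooled levels was 0.51 (95% counting interval 0.36 to 0.65), but 0.28 once all oocytes were thinned to 900000 counts. Cnot6 also made up more of its pair there, as the share of Cnot6l was 88.9% in old SN against 91.7% in young SN and 92.1% in old NSN oocytes.

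The CAF1-type nucleases were expressed at more equal levels. Cnot7 (TCONS_00100059, chr8:40492538-40515848, minus strand) made up 57.3% of Cnot7 plus Cnot8 per kilobase, and between 43.1% and 70.5% in single oocytes. With the longest protein-coding transcript as the length, the lowest share in any oocyte was 54.1% and the median 66.8%, so which of the pair is the more abundant in single oocytes depends on the length used. The share was 57.8% in young and 56.6% in old oocytes, within the SD over oocytes of 5.71 and 6.13 percentage points. Cnot7 ranged from 424 to 992 CPM in young (median 661) and from 438 to 1142 CPM in old oocytes (median 622), a log2 ratio of -0.04. It was lower in SN oocytes, by log2 ratios of -0.27 in young and -0.29 in old, in each of the 6 runs, though the ranges overlapped: the old SN oocytes lay between 465.7 and 789 CPM. Its feature overlaps that of Vps37a on the other strand by 4138 bases.

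Cnot8 (TCONS_00015434, chr11:58103910-58118599, plus strand) had old SN and old NSN oocytes that overlapped little. Its feature starts within a RefSeq promoter window (GRCm38.p6, chr11:58103720-58104019, plus strand), given because the gene was, with Btg4, lower in all old SN oocytes than in the median old NSN oocyte.
Cnot8: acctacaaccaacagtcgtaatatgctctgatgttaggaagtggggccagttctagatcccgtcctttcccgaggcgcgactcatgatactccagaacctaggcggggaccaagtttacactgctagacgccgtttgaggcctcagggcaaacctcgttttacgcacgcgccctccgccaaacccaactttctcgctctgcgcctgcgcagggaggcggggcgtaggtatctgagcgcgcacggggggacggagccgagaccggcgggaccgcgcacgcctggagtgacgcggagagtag
The window has a GC content of 61.7% and holds 0 E-boxes. Another RefSeq window of Cnot8 (chr11:58092544-58092843), without the feature start, holds 1. The median over all windows is 1 E-box and the 90th percentile 3, so the 2 of Btg4 do not set its window apart. The core of the element bound by the oocyte factor NOBOX (TAATTG, both strands) was found in none of the 3 windows shown and in 8.002% of all windows.

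The 8 old SN oocytes had 161, 164, 169, 174, 178, 182, 194 and 194 CPM of Cnot8. The 37 old NSN oocytes lay between 184 and 295 CPM (median 239), so that 6 of 8 SN oocytes were below the lowest NSN oocyte and 35 of 37 NSN oocytes above the highest SN oocyte. Pooled, old SN oocytes had 181 CPM (95% counting interval 175 to 187) and old NSN oocytes 242 CPM (239 to 245), so that the log2 ratio was -0.42 (-0.47 to -0.37). In young oocytes the ranges overlapped more, with 161 to 245 CPM in SN (median 211) and 185 to 291 CPM in NSN (median 235), and the log2 ratio was -0.16. By run, SN was lower in 5 of 6 runs. In the remaining young run, which holds 1 SN oocyte, the ratio was 0.15. Over the 8 old SN oocytes Cnot8 had an r of 0.75 with the log2 total count, as a description.

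Cnot8 was also lower in old than in young SN oocytes. None of the 8 old SN oocytes reached the young SN median, and 8 of 12 young SN oocytes lay above the highest old SN oocyte. The pooled log2 ratio was -0.21 (95% counting interval -0.26 to -0.15), short of 0.3, and over all oocytes of each age it was 0.03. Among SN oocytes it was -0.31 in names with the suffix A, which 3 old ones carry, and -0.11 in names without it. Whether the difference between configurations itself differs with age was not tested.

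Dcp1a (TCONS_00032011, chr14:30478784-30529371, plus strand), the activator of the decapping enzyme, ranged from 768 to 1382 CPM in young (median 1075) and from 647 to 1414 CPM in old oocytes (median 1079), a log2 ratio of -0.03. Its pooled level was lower in SN oocytes, by log2 ratios of -0.10 in young and -0.24 in old, and 1 of 8 old SN oocytes was above the old NSN median of 1125 CPM. SN was lower in 5 of 6 runs, but by a log2 ratio of only -0.02 in old run 6. In young run 3 the ratio was 0.07, and without run 5 the young ratio was -0.03. The feature overlaps that of Cacna1d on the other strand.

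Dcp2, the decapping enzyme itself (TCONS_00050071, chr18:44377969-44424969, plus strand), had nearly the same median in young (197 CPM, range 144 to 254) and old oocytes (198 CPM, range 122 to 405). The old oocytes reached farther in both directions, with 9 of 45 above the highest and 5 below the lowest young oocyte. All 9 had names without the suffix A, and 6 of them were in run 4. Old NSN oocytes stood at 241 CPM without and 178 CPM with the suffix. The log2 ratio of the pooled levels, old over young, was 0.05, and SN over NSN it was -0.09 in young and -0.24 in old oocytes. In old SN oocytes the values ran from 122 to 252 CPM, and the ratio was -0.49 in names without and 0.06 in names with the suffix A. The feature overlaps by 76 bases a feature at Mcc on the other strand with 114% of its counts, and whether the counting used strand is not given in the sources used here.

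Pabpc1l (TCONS_00058681, chr2:164024814-164050538, plus strand) was, with Cnot1, higher in SN oocytes. It ranged from 122 to 256 CPM in young (median 180) and from 104 to 245 CPM in old oocytes (median 166), a log2 ratio of -0.09. All 8 old SN oocytes (174 to 245 CPM, median 216) lay above the old NSN median of 162 CPM, and 24 of 37 old NSN oocytes lay below the lowest of them. The log2 ratio was 0.35 (95% counting interval 0.30 to 0.40) in old and 0.24 (0.20 to 0.28) in young oocytes, where 9 of 12 SN oocytes (137 to 256 CPM) were above the NSN median of 175 CPM. The young value was 0.11 from the mean and 0.09 from the median over oocytes, and 0.04 without run 3, and over the 12 young SN oocytes Pabpc1l had an r of 0.82 with the log2 total count. SN was higher in 5 of 6 runs. The exception was the young run with 1 SN oocyte, at -0.26.

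Counted together, 0 of the 9 genes differed between old and young oocytes by a log2 ratio of 0.3 or more in either direction. Of the 9397 features that reached 10 CPM in young or old and 3 counts in both, 0.66% were higher and 2.6% lower by that much. The ratios ran from -0.14 (Cnot1) to 0.26 (Cnot6) with a median of 0.03, against -0.0044 over all these features. Within NSN oocytes the count was again 0 of 9 (background 0.912% higher and 3.28% lower), and within SN oocytes 1 of 9, Cnot6, was higher and 0 of 9 lower (background 7.95% and 6.32%).

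Between configurations, 1 of 9 genes, Cnot6l, was lower in young SN than in young NSN oocytes by 0.3 or more and 0 of 9 were higher (background 3.91% lower and 10.1% higher). With the mean or the median over oocytes, or after thinning to 900000 counts, Cnot6l was short of 0.3 there. In old oocytes 2 of 9, Cnot8 and Cnot6l, were lower and 2 of 9, Pabpc1l and Cnot1, were higher (background 14.8% and 20.7%). These shares lie near the background in old oocytes. By name, old Cnot6l was short of 0.3 with the suffix A (-0.22) and old Cnot1 without it (0.13). At any size of difference 7 of 9 were lower in young and 6 of 9 in old SN oocytes, with medians of -0.16 and -0.24 against 0.0012 and -0.0069 over all features. Of all features, 4764 of 9586 were lower in young and 4959 of 9747 in old SN oocytes. Cnot6 had a ratio of -0.19 in young and 0.13 in old oocytes. The young ratio of Cnot6 was 0.001 after thinning to 900000 counts. That of Dcp2 was 0.03 without run 3, and its old ratio was 0.06 with the suffix A. The direction of these genes therefore depends on the processing. The summed level of the oocyte markers differed too, with medians of 16473 and 19601 CPM in young NSN and SN and of 15823 and 21121 CPM in old NSN and SN oocytes, and its part in these results was not tested. The comparisons share groups of oocytes and are therefore not independent of each other.

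**Figure D2:**
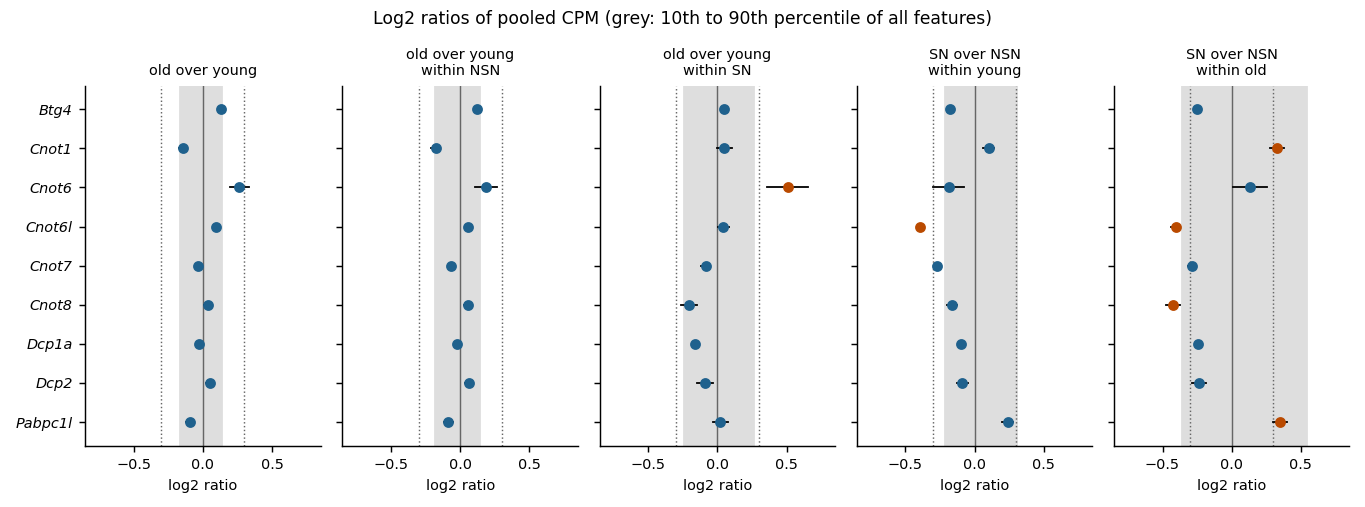
Log2 ratios of pooled CPM of the 9 genes in 5 comparisons. Points are ratios (orange where 0.3 or more in size, marked by the dotted lines), horizontal bars are 95% counting intervals and the grey band holds the 10th to 90th percentile of all features; no gene passes 0.3 between the ages over all oocytes, and Cnot8 and Cnot6l on the lower and Pabpc1l and Cnot1 on the higher side do so between configurations in old oocytes.

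**Figure D3:**
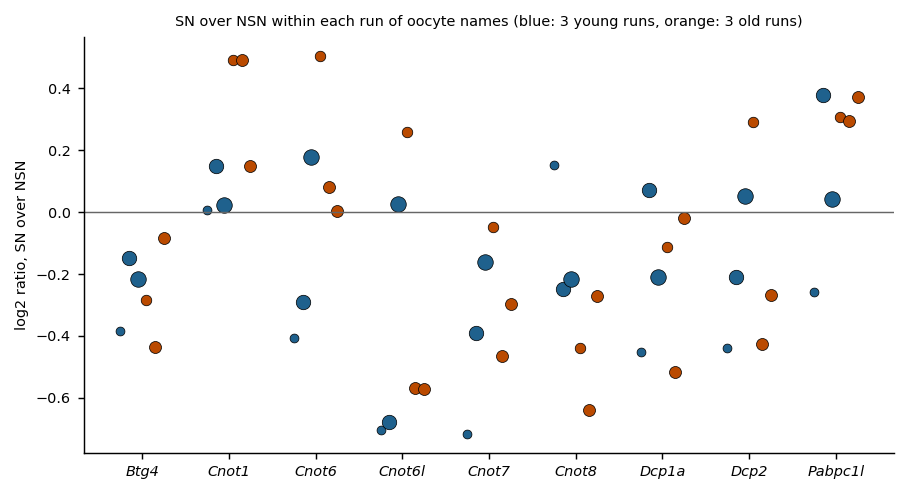
Log2 ratio of SN over NSN for each gene within each of 6 runs of oocyte names, 3 young (blue) and 3 old (orange), with larger points for runs with more SN oocytes (1 to 6). Btg4 and Cnot7 lie below 0 and Cnot1 above 0 in each of the 6 runs, whereas Cnot6, Cnot6l and Dcp2 fall on both sides. So do Cnot8, Dcp1a and Pabpc1l, each with 1 run on the other side.

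The spread between oocytes of the same age was compared as well. It was taken as the coefficient of variation (CV) over oocytes after counting noise was removed. Dcp2 had a CV of 13.5% over young and 27.6% over old oocytes, and Cnot1 of 12.0% and 22.7%. As squared CVs these are log2 ratios of 2.06 and 1.84. Btg4 (12.0% and 17.6%), Pabpc1l (15.0% and 20.3%), Dcp1a (13.4% and 17.1%), Cnot8 (12.8% and 15.9%) and Cnot7 (19.6% and 23.3%) were also more spread over old oocytes, with log2 ratios of 0.50 to 1.12. Of the nucleases of the CCR4 type, Cnot6 had 25.6% and 26.3%, a log2 ratio of 0.08, and Cnot6l 29.1% and 26.9%, a log2 ratio of -0.23.

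Thus 8 of 9 genes had the larger spread in old oocytes, as did 73.9% of the 12137 features whose mean count reached 10, with a median log2 ratio of 0.45. The count is near that background, and it was 7 of 9 with all oocytes thinned to 900000 counts, where Cnot6 had a log2 ratio of -0.45. Within NSN oocytes that of Cnot8 was 0.13 in place of 0.64. The spread of Dcp2 moved with the name suffix: its log2 ratio was 2.88 in names without the suffix A (CV 10.7% over young and 29.1% over old) and 0.16 in names with it (15.2% and 16.05%). For Cnot1 it was 1.72 and 2.11. Dcp1a had -0.14 without and 1.03 with the suffix, and Cnot6 0.66 and -0.49. Without old oocyte 9 (name without the suffix), which had the highest Dcp2 (405 CPM) and Cnot7 (1142 CPM), the log2 ratio of Dcp2 was 1.66 and that of Cnot7 0.21. Without old oocyte 31 the ratio of Btg4 was 0.82, that of Cnot1 1.69 and that of Cnot6 -0.19, while Cnot6l reached 0.11 without young oocyte 18. Both have names without the suffix. Within runs the ratios were 1.75 for Dcp2 and 1.73 for Cnot1. These rest on old runs 2 and 4, with CVs of 34.4% and 20.5% for Dcp2 and 25.6% and 24.4% for Cnot1. In old run 6 they were 15.5% and 15.3%, against 16.8% and 15.4% in young run 1. For Btg4 only old run 4 (25.4%) lay above the young runs (8.90% to 13.7%). Old oocytes came from more mice than young ones, and how much of the spread lies between mice was not tested.

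**Figure D4:**
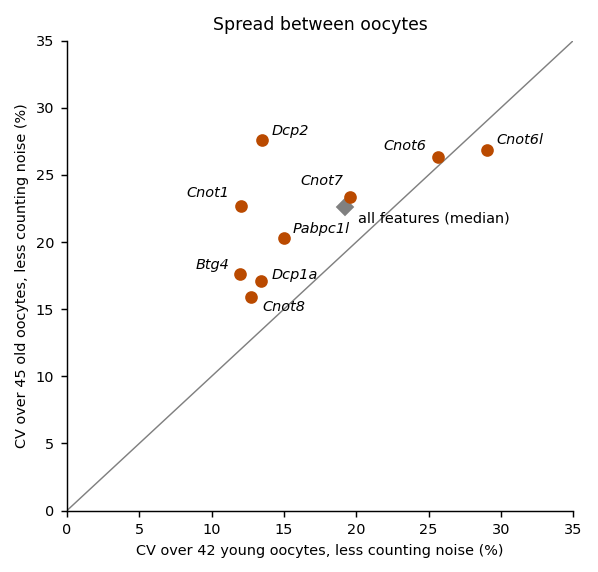
CV over oocytes less counting noise, in percent, for 42 young (horizontal) and 45 old oocytes (vertical), with the line of equality. Circles are the 9 genes and the diamond is the median of all features; Dcp2 and Cnot1 lie farthest above the line and only Cnot6l lies below it.

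Over the 87 oocytes several pairs of genes varied together, described by Pearson's r of log2(CPM + 1) with no test, since all values of an oocyte share its library and total. Cnot6l varied with Dcp2 (r = 0.65), with Cnot7 (0.64) and with its paralog Cnot6 (0.60), and opposite to Pabpc1l (-0.51). Btg4 varied with Dcp1a (0.57) and Cnot8 (0.51), and opposite to Cnot1 (-0.60). Its r with Cnot7 was 0.48, but 0.10 in young NSN oocytes. Cnot1 varied opposite to Cnot8 (-0.51) and with Pabpc1l (0.46). Without the 2 oocytes farthest from the median of the first gene named, these values were 0.64, 0.61, 0.58 and -0.47 for Cnot6l, 0.56, 0.49 and -0.51 for Btg4 with Dcp1a, Cnot8 and Cnot1, and -0.49 and 0.43 for Cnot1. The sign was the same in each of the 6 runs for Btg4 with Cnot1 and Cnot8, for Cnot6l with Dcp2, Cnot7 and Cnot6, and for Cnot1 with Cnot8, and in 5 of 6 for Btg4 with Dcp1a, Cnot6l with Pabpc1l and Cnot1 with Pabpc1l. Among the 37 old NSN oocytes alone, r was 0.66 for Cnot6l with Dcp2, 0.68 for Cnot6l with Cnot6 and -0.53 for Btg4 with Cnot1, while it was -0.33 for Cnot1 with Cnot8, 0.40 for Btg4 with Cnot8 and -0.37 for Cnot6l with Pabpc1l. For Cnot1 with Pabpc1l r was 0.49 in old NSN but 0.01 in young NSN oocytes. It was 0.56 over the 45 old and 0.13 over the 42 young oocytes, so this pair varied together in old oocytes only. Over all 87 oocytes the r of the 9 genes with the log2 total count lay between -0.23 (Btg4) and 0.20 (Pabpc1l). It was larger within groups, as in the 30 young NSN oocytes, where it was 0.49 for Cnot6l, 0.45 for Dcp2 and -0.38 for Btg4, and the part of depth in the correlations was not tested.

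**Figure D5:**
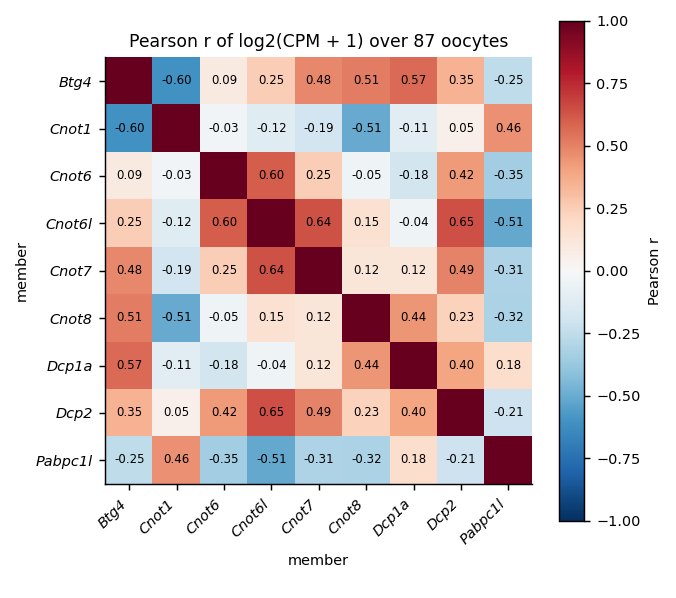
Pearson's r of log2(CPM + 1) for each pair of the 9 genes over 87 oocytes, red for positive and blue for negative values. Cnot6l has values of 0.60 to 0.65 with Cnot6, Cnot7 and Dcp2, and the lowest values are -0.60 for Btg4 with Cnot1 and -0.51 for Cnot6l with Pabpc1l and for Cnot1 with Cnot8.

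Among the 5366 features whose mean count reached 100, those most like Cnot6l over the 87 oocytes were Rif1 (r = 0.90), Fmn2 (0.89) and Nipbl (0.88). Those most like Btg4 were the unnamed TCONS_00106594, Riok1 and Tgds, each at 0.78, and those most like Pabpc1l were Tle6 (0.86), Pkm (0.81) and Aldh9a1 (0.80). The features of Rif1, Fmn2, Tle6 and TCONS_00106594 overlap features on the other strand.

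Around these genes, 77 further genes of tail shortening, tail binding, decapping, uridylation, exonucleolytic decay and recruitment by RNA-binding proteins were examined, of which 72 had a feature and 65 had at least 10 CPM in a group. Between the ages 0 of 65 passed 0.3 in either direction. Within NSN oocytes 2 of 64 were lower in the old ones, Exosc2, an exosome subunit (8.11 against 10.4 CPM, log2 ratio -0.35), and Ddx6, an RNA helicase of P-bodies (22.9 against 29.1 CPM, -0.34). That share is near the 3.28% of all features. In SN against NSN oocytes 11 of 65 were higher and 2 lower in the young, and 13 of 65 higher and 9 lower in the old. In old oocytes these counts lie near the background of all features given above, and in young oocytes the count of higher genes lies above it and that of lower genes near it.

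Among the decapping genes, Patl2, which binds repressed oocyte mRNA, was higher in SN oocytes at both ages (66.1 against 46.1 CPM in young, log2 ratio 0.52, and 94.97 against 41.99 CPM in old, 1.18). So were Ddx6 (40.2 against 29.1 CPM, 0.47, and 54.8 against 22.9 CPM, 1.26) and Lsm1 of the LSM ring (56.3 against 37.1 CPM, 0.60, and 67.4 against 38.6 CPM, 0.80). Lsm3 had ratios of -0.17 in young and -0.64 in old oocytes (76.0 against 119 CPM). Of the poly(A)-binding proteins, Pabpc1, the somatic relative of Pabpc1l, stood at 20.5 CPM in old SN and 7.98 CPM in old NSN oocytes, a log2 ratio of 1.36, and at 13.02 CPM in young SN and 9.64 CPM in young NSN oocytes, 0.43. The nuclear Pabpn1 was lower in SN oocytes of both ages (14.9 against 22.2 CPM, -0.58, in young, and -0.42 in old), and Pabpn1l had ratios of -0.08 in young and -0.43 in old oocytes (315 against 426 CPM). The CCR4-NOT subunit Cnot11 was lower in SN oocytes of both ages (128 against 173 CPM, -0.43, in young, and 125 against 167 CPM, -0.42, in old), and Skiv2l, a helicase that serves the exosome, was higher in both (26.2 against 15.8 CPM, 0.72, and 28.2 against 14.9 CPM, 0.92). Dis3l2, a nuclease for uridylated RNA, had ratios of -0.17 in young and -0.66 in old oocytes (7.48 against 11.8 CPM). Between the ages within SN oocytes, 6 of 65 were higher in the old, Pabpc1 (0.66), Patl2 (0.52) and the adaptor Tob1 (28.5 against 20.7 CPM, 0.46) with the largest ratios, and 1, Dis3l2 (-0.44), was lower, with 7.95% higher and 6.32% lower among all features.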

How the data were processed

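RNA of 88 single GV oocytes was captured on oligo-dT beads and sequenced after Smart-seq2. After trimming, the authors used HiSat2 for alignment to GRCm38, counted reads over an oocyte transcriptome annotation, and deposited the raw counts. The strand setting is not given in the sources used here. No other column was used. Features were matched to genes by the study's list of names or by the best same-strand overlap with a gene of GENCODE M21 (Jaccard index of at least 0.3). Where a listed name belonged to a neighbouring or opposite gene, the overlap was used.

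Counts were scaled to CPM and pooled by age and predicted configuration. The members and gene lists were chosen with earlier results of these data known. Beside all members, the text names, of the other listed genes, up to 3 highest and 3 lowest past 0.3, and the 3 features most like Btg4, Cnot6l and Pabpc1l. Calculations used Python 3.11.15, numpy 2.4.6, R 4.3.3 and edgeR 4.0.16 (TMM factors only), and were tested on simulated counts. Alternatives covered oocytes, depth, scaling, estimator, limits and filters.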

Additional observations from a re-analysis of the deposited data

How the results depend on the processing

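No paired analysis was possible because the result comes from no test and the labels name no mouse. Leaving out old oocyte 15 (the SN oocyte, with a name without the suffix A), ratios within runs, the transcript length, the pair shares by it, leaving out single oocytes and splitting by suffix for spread, and leaving out 2 oocytes for correlations were chosen after the data were seen. No gene past 0.3 changed its sign under the alternatives that keep all runs or leave 1 out, but within single runs Cnot6l did, at 0.03 in young run 5 and 0.26 in old run 2. Each gene had 1 feature, so summing features was not run.

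Between old and young oocytes the number of genes higher by 0.3 or more, 0 of 9, was 1 in names with the suffix A and 1 at a limit of 0.2. Within NSN oocytes it was 1 with the suffix A, where the median ratio was -0.0601. Within SN oocytes the number higher, 1, was 0 after thinning to 900000 counts, 0 with a minimum of 50 CPM and 2 with the suffix A, and the number lower, 0, was 2 with the suffix A and 1 at a limit of 0.2.

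In young oocytes the number lower in SN, 1, was 0 after thinning, with the mean or the median over oocytes, with the suffix A (median ratio -0.0259) and at a limit of 0.5, 3 without the suffix and 2 at a limit of 0.2, where 1 was higher. In old oocytes the number higher in SN, 2, was 1 with TMM factors and without the suffix and 0 at a limit of 0.5. The number lower, 2, was 4 without the suffix, 6 at a limit of 0.2 and 0 at a limit of 0.5.

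With each run left out in turn, the median ratio was -0.0496 to 0.109 between ages within NSN and -0.25 to -0.14 between configurations in old oocytes. Between all old and young oocytes the number higher was 0 to 1 (1 without run 1 or 2) and the number lower 0. Between configurations they were 0 to 1 and 0 to 3 in young oocytes (0 lower without run 3, 1 higher and 3 lower without run 5) and 1 to 2 and 2 to 4 in old oocytes (1 higher without run 2 or 4, 4 lower without run 2 or 6). On raw counts the share of Cnot6l was 95.1% in young and 94.5% in old oocytes, and that of Cnot7 75.2% and 74.2%. The cause of these changes was not tested. Cnot6, the lowest gene, has at least 21 counts per oocyte, so its values carry the most counting error.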
